A study of Mus musculus with 4 samples.

Results

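The Th1 axis genes described here are Ifng, the transcription factor genes Tbx21, Eomes and Runx3, the IL-12 receptor genes Il12rb1 and Il12rb2, the IL-18 receptor genes Il18r1 and Il18rap, the interferon-γ receptor gene Ifngr1 and the protease gene Furin. They were taken by name and make up 10 of the 31053 gene IDs counted, each found under 1 ID. Transcripts had been counted in single living CD4 T cells, sorted as CD45+CD3+CD4+ and 7AAD negative (7AAD marks dead cells). The cells came from the lamina propria of the small intestine, and the mice were wild type on the C57Bl/6 background. The lamina propria is the connective tissue under the gut epithelium, and Peyer's patches had been taken out beforehand. No mouse was treated, and the labels give no age or sex. The design names 4 mice and the series holds 4 libraries of 1 group, so cells were compared with other cells of the same libraries. Each library was a block in the main fits. Their p-values therefore measure how far differences within a library vary across these libraries, with an estimate of spread shared in part across genes. The labels do not tie a library to a mouse, so that variation may be technical.

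Interferon-γ is the signature cytokine of T helper 1 (Th1) cells, and activates macrophages and epithelial cells against intracellular microbes. Its transcription in T cells is driven by T-bet (Tbx21) and the related Eomes, with Runx3 as a partner of T-bet. IL-12 signals through IL-12Rβ1 and IL-12Rβ2 to STAT4, and IL-18 signals through IL-18R1 and IL-18RAP to MyD88. IL-12 and IL-18 together induce Ifng strongly in cells that carry both receptors. Furin is a protease of the secretory pathway that activates precursor proteins, among them pro-TGF-β1, and is known as an IL-12-induced gene in T cells.

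The libraries held 5149 to 5626 analysed cells each, 21501 in all, with median depths of 3630 to 4173.5 UMIs (unique molecular identifiers, each standing for 1 captured transcript). Pairs of libraries shared 34 to 55 cell barcodes. For every comparison of detection, each cell with at least 2000 UMIs was thinned at random to exactly 2000, which kept 20752 cells and left out 749. At that depth Cd3e was found in 97.0% ± 0.581 of cells (mean ± SD, n = 4 libraries) and Cd4 in 51.7% ± 1.53, and Cd8a was found in 2.16% ± 1.70. The lists of markers for B, myeloid, epithelial and stromal cells summed to at most 179 CPM (UMIs per 1000000) in any library, against 5615 to 5861 CPM for the T cell list. The plasma cell list varied between 77.1 and 592 CPM, and the mast cell list reached at most 0.285 CPM.

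Cells were placed in 5 gates by first match. A cell with a Foxp3 UMI (the regulatory T cell factor) came first, then 1 with an Il17a UMI (the Th17 cytokine), then 1 with a Cd8a UMI, then 1 with at least 10 UMIs of Gzma (granzyme A), and all others made up the rest. The Foxp3 gate held 7.11% ± 1.21 of cells (1535 cells), the Il17a gate 2.72% ± 1.05 (586), the Cd8a gate 2.76% ± 2.12 (585), the Gzma gate 13.4% ± 0.348 (2879) and the rest 74.0% ± 1.26 (15916). Since 1 UMI sufficed, deep cells entered the first gates more easily. Median depth was 4483 UMIs in the Foxp3 gate and 5215.5 in the Il17a gate, against 3811 in the rest. Library 4 stood apart in the Cd8a gate, with 5.94% of its cells there against 1.65% to 1.78% in libraries 1 to 3.

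Ifng was highest in cells rich in Gzma and lowest in Foxp3 cells. The Gzma gate held 472, 503, 494 and 465 CPM of Ifng in libraries 1 to 4, and the rest held 271, 315, 306 and 248. The Cd8a gate had 203, 228, 380 and 317 CPM, the Il17a gate 186, 226, 213 and 188, and the Foxp3 gate 89.5, 98.7, 101 and 101. Every Gzma gate value lay above every value of the other gates, and every Foxp3 gate value lay below them. The Cd8a gate overlapped both the rest and the Il17a gate, while the Il17a gate lay below the rest in all 4 libraries. In a fit over 9812 genes, edgeR's quasi-likelihood test put Ifng 0.77 ± 0.09 higher in the Gzma gate than in the rest (log2 fold change ± SE, Benjamini-Hochberg adjusted p = 3.9e-06). By the same test it was 1.51 ± 0.10 lower on the log2 scale in the Foxp3 gate (log2 fold change -1.51, adjusted p = 9.4e-11) and changed by -0.43 ± 0.11 in the Il17a gate (adjusted p = 0.00445). The Cd8a gate did not differ from the rest past the threshold (-0.03 ± 0.11, adjusted p = 0.938).

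**Figure D1:**
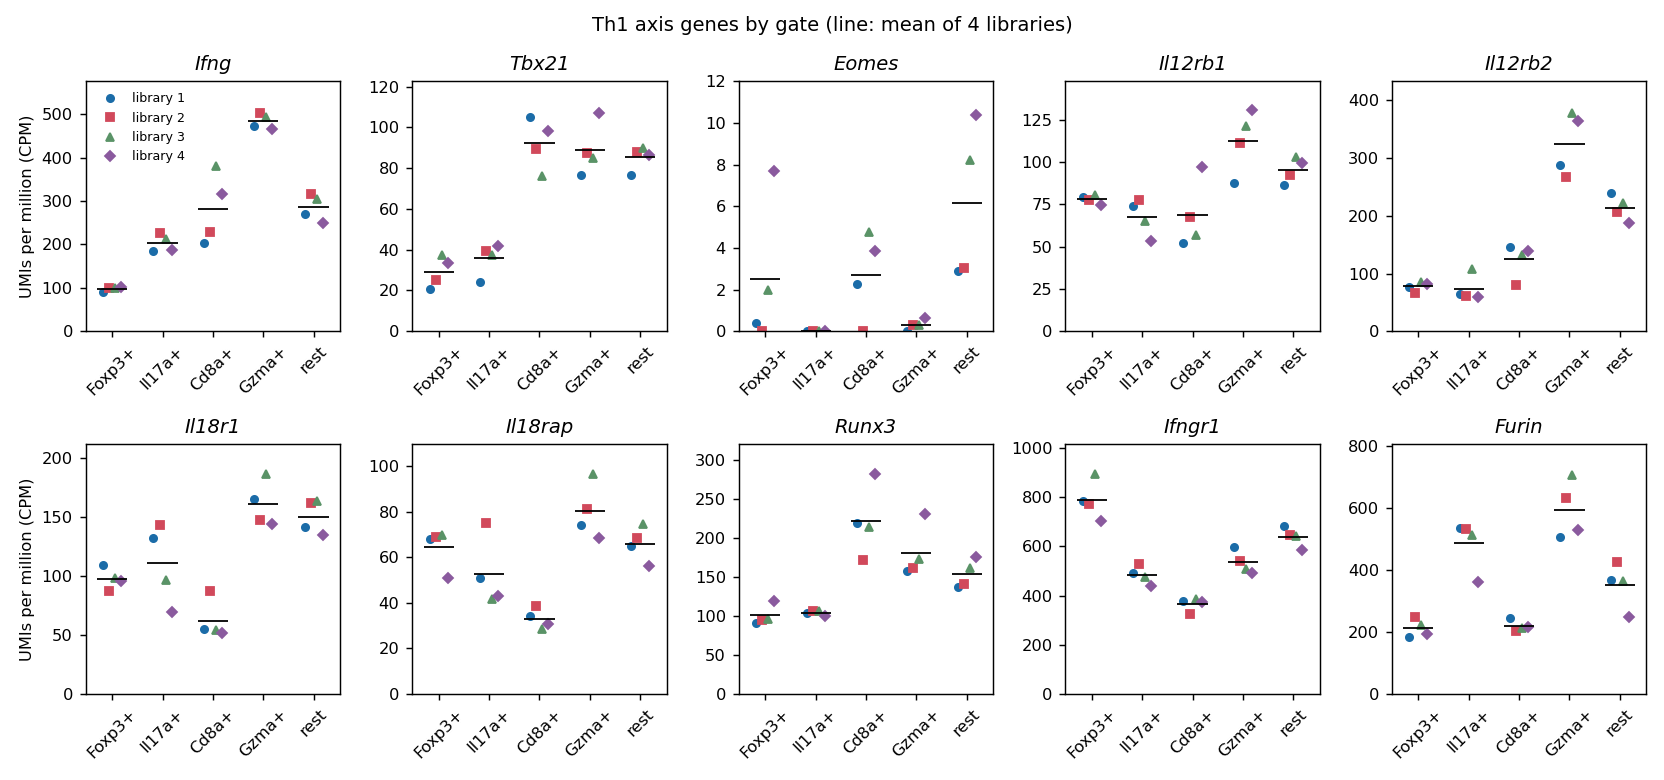
CPM of each of the 10 genes (vertical axes, linear from 0) in the 5 gates (horizontal axes); each point is 1 of the 4 libraries and each line is their mean. Ifng in the Gzma gate (465 to 503 CPM) lies above all other gates, and Eomes is at or near 0 in the Il17a and Gzma gates.

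An Ifng UMI was found in 23.1% ± 1.43 of cells at 2000 UMIs, and in 32.3% ± 1.24 without thinning. As a background, cells that held Ccr7, a homing receptor gene of naive and central memory cells, and no Foxp3 or Il17a were counted, a set chosen after the data were seen. Among them 47 of 578 had an Ifng UMI at 2000 UMIs (8.13%, exact 95% binomial interval 6.04% to 10.7%, which covers counting error only), with a median depth of 4674 UMIs before thinning. The share was 33.6% ± 2.16 in the Gzma gate, 31.8% ± 2.19 in the Cd8a gate, 22.7% ± 1.93 in the rest, 15.4% ± 4.76 in the Il17a gate and 6.98% ± 1.99 in the Foxp3 gate. The share of the Foxp3 gate was no higher than in the Ccr7-holding cells, but a narrower set of background cells, not reported here, gave a lower share, so it was not settled whether the Foxp3 gate exceeds background. The rest, being the largest gate, still held 72.5% ± 3.40 of all cells with Ifng. Transcripts were concentrated in few cells. The 1% of cells with most Ifng held 27.2% ± 4.93 of all Ifng UMIs, against 15.3% ± 1.22 for Il12rb2 and 6.27% ± 0.509 for Ifngr1, each over its own ranking of cells.

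The signal-transducing IL-12 receptor chain gene Il12rb2 had the same top gate as Ifng. It measured 288, 267, 378 and 365 CPM in the Gzma gate of libraries 1 to 4, and 240, 207, 223 and 187 in the rest. The Cd8a gate held 146, 79.9, 133 and 139 CPM, the Foxp3 gate 76.4, 66.7, 86.2 and 81.1, and the Il17a gate 64.1, 60.9, 109 and 59.5. All Gzma gate values were above all values of the rest, and the Foxp3 and Il17a gates overlapped each other. Against the rest, the log2 fold change was 0.58 ± 0.10 in the Gzma gate (edgeR adjusted p = 2.6e-04), -0.80 ± 0.14 in the Cd8a gate (2.0e-04), -1.44 ± 0.11 in the Foxp3 gate (9.9e-10) and -1.57 ± 0.14 in the Il17a gate (3.2e-08). The Gzma gate call was lost when the gate was set on thinned counts (0.20, adjusted p = 0.286) or at 20 Gzma UMIs (0.28, adjusted p = 0.0897).

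Furin differed from Il12rb2 in the Il17a gate. It measured 505, 633, 707 and 530 CPM in the Gzma gate, 536, 531, 514 and 362 in the Il17a gate, 369, 426, 364 and 248 in the rest, 244, 203, 214 and 215 in the Cd8a gate, and 182, 247, 222 and 192 in the Foxp3 gate. Within each library the Gzma and Il17a gates were above the rest and the Cd8a and Foxp3 gates below it. The log2 fold change against the rest was 0.77 ± 0.10 in the Gzma gate (edgeR adjusted p = 1.1e-05) and 0.54 ± 0.11 in the Il17a gate (6.5e-04). It was -0.66 ± 0.12 in the Cd8a gate (6.7e-04) and -0.69 ± 0.11 in the Foxp3 gate (1.9e-05). Library 4 held less Furin than the other libraries in the rest and in the Il17a gate.

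The T-box gene Tbx21 was lower in the Foxp3 gate (20.5 to 37.7 CPM; log2 fold change against the rest -1.54 ± 0.12, edgeR adjusted p = 2.4e-10) and in the Il17a gate (24.2 to 42.1 CPM; -1.25 ± 0.15, adjusted p = 6.6e-07). The rest held 76.7, 88.1, 90.1 and 86.5 CPM, the Gzma gate 76.5, 87.4, 84.8 and 107, and the Cd8a gate 105, 89.6, 75.9 and 98.1. These last 3 gates overlapped, and no difference from the rest passed the test in the Gzma gate (0.05 ± 0.09, adjusted p = 0.771) or the Cd8a gate (0.06 ± 0.12, adjusted p = 0.843). The mean Tbx21 level of the Gzma gate (89.0 ± 13.1 CPM) was within 1 SD of that of the rest (85.4 ± 5.95).

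Eomes, the other T-box factor, was sparse and uneven. Over all cells it measured 2.07, 2.16, 6.28 and 8.17 CPM in libraries 1 to 4, from 447 UMIs in total, so libraries 3 and 4 held more than libraries 1 and 2. Its transcripts lay mainly in the rest (2.89, 3.02, 8.24 and 10.4 CPM), where 415 of the 447 UMIs were found. The Gzma gate held 4 UMIs (0 to 0.633 CPM), and the edgeR fold change against the rest was -4.25 ± 0.85 on the log2 scale (adjusted p = 1.3e-05). That value rests on those 4 UMIs, and it was -2.72 with the gate at 5 Gzma UMIs and -3.32 without doublet removal. No Eomes UMI was found among the 3922986 UMIs of the Il17a gate. A count of 0 allows up to 3 UMIs, or 0.765 CPM, by counting error alone. Eomes UMIs lay in few cells, with up to 11 in a cell, so this limit is too narrow and no fold is given.

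Runx3, which partners with T-bet and is known from cytotoxic T cells, had its highest mean in the Cd8a gate (172 to 282 CPM against 137 to 175 in the rest, overlapping by 1 library; log2 fold change 0.51 ± 0.09, edgeR adjusted p = 3.2e-04). Both IL-18 receptor genes had their lowest mean in the Cd8a gate. Il18r1 held 51.3 to 87.2 CPM there against 135 to 163 in the rest (-1.33 ± 0.17, adjusted p = 2.8e-06), and Il18rap held 28.5 to 38.8 CPM against 56.0 to 74.6 (-0.99 ± 0.16, adjusted p = 2.6e-05). Ifngr1, the ligand-binding receptor chain that lets a cell sense interferon-γ, had another order than Ifng. It was highest in the Foxp3 gate (704 to 896 CPM against 584 to 684 in the rest; 0.34 ± 0.06, adjusted p = 1.8e-04) and lowest in the Cd8a gate (325 to 384 CPM; -0.83 ± 0.07, adjusted p = 3.0e-08). Il12rb1, the chain shared by the IL-12 and IL-23 receptors, varied least between gates among the IL-12 and IL-18 receptor genes by its mean, from 67.6 ± 10.8 CPM in the Il17a gate to 113 ± 18.5 in the Gzma gate.

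Counted by gate, 8 of the 10 genes differed from the rest in the Foxp3 gate (1 higher, 7 lower), where 30.3% of all genes tested did (16.7% higher, 13.6% lower). In the Il17a gate 9 did (1 higher, 8 lower), against 24.3% of all genes (14.3% higher, 9.94% lower). In the Cd8a gate 6 did (1 higher, 5 lower), against 11.9% of all genes (5.1% higher, 6.84% lower). In the Gzma gate 7 did (5 higher, 2 lower), against 14.3% of all genes (7.72% higher, 6.57% lower). Il12rb1 (-0.40 ± 0.13, adjusted p = 0.0306) and Il18r1 (-0.36 ± 0.13, adjusted p = 0.0411) were the weakest calls of the Il17a gate, and both were lost without library 3 (0.108 and 0.171) or library 4 (0.106 and 0.255), Il12rb1 also without library 2 (0.0629). Without library 3 or library 4, 6 genes were called of the 9 that could be tested, Eomes being below the filter. Of all genes, 1897 of 9950 were called without library 3 and 1865 of 10019 without library 4. With all sums thinned to 2000 UMIs per cell both calls were lost as well (Il12rb1 -0.36, adjusted p = 0.186; Il18r1 -0.16, adjusted p = 0.597), in a gate with the highest median depth. In the Gzma gate Runx3 (0.23 ± 0.07, adjusted p = 0.0457) lost its call whichever library was left out (adjusted p 0.086 to 0.172), and Il18rap (0.28 ± 0.07, adjusted p = 0.0121) lost it with a gate at 20 Gzma UMIs (0.06, adjusted p = 0.676). In the Cd8a gate, to which library 4 gave 306 of 585 cells, Il12rb1 was not called (-0.40 ± 0.15, adjusted p = 0.0841). It passed there without library 4 (-0.72, adjusted p = 0.003025) and with all sums thinned to 2000 UMIs per cell (-0.62, adjusted p = 0.0131). In the Foxp3 gate Il12rb1 was not called either (-0.25 ± 0.11, adjusted p = 0.0956). It passed there with thinned sums (-0.51, adjusted p = 5.1e-04), with gates on thinned counts (-0.54, adjusted p = 0.00195) and with a gate at 20 Gzma UMIs (-0.27, adjusted p = 0.0425). Other cell markers moved with some gates. The epithelial list summed to 83.6 to 108 CPM in the Foxp3 gate against 13.8 to 19.4 in the rest, with 2 (Krt20, Vil1) of its 6 markers at 0, and the B cell list to 37.5 to 45.1 against 6.31 to 11.6, with 3 of 5 at 0, Ms4a1 and Pax5 among them. The myeloid list summed to 166 to 451 CPM in the Cd8a gate against 142 to 168 in the rest, with 1 (Adgre1) of 7 at 0. Without the 2262 cells that held at least 3 UMIs of the other cell types' markers, Eomes fell below the filter and 9 genes could be tested. Of these, 7 were called in the Foxp3 gate, 6 in the Il17a gate, 6 in the Cd8a gate and 6 in the Gzma gate, where 2265, 1344, 1048 and 1443 of all 8672 genes were called. The calls lost there other than Eomes were those of Il12rb1 and Il18r1 in the Il17a gate. The stromal list summed to 53.3 to 84.6 CPM in the Il17a gate, with 3 of 4 markers at 0, against 42.3 to 43.5 in the rest. The γδ T cell list summed to 228 to 487 CPM in the Cd8a gate, with 1 (Trdv4) of 4 markers at 0, against 46.9 to 97.4 in the rest. It summed to 96.1 to 242 CPM in the Gzma gate and 91.3 to 241 in the Il17a gate, both overlapping the rest, and to 8.21 to 49.8 in the Foxp3 gate. The part of these lists in the gates' differences was not tested. Fewer transcribing cells and fewer transcripts per cell cannot be told apart in a gate's sum alone. Ifng-holding cells of 2000 UMIs held a mean of 2.07 ± 0.167 Ifng UMIs in the Foxp3 gate and 2.58 ± 0.629 in the Il17a gate. It was 1.72 ± 0.198 in the Cd8a gate, 3.06 ± 0.257 in the Gzma gate and 2.62 ± 0.275 in the rest. The Cd8a gate had a larger share of Ifng-holding cells than the rest (29.0% to 34.4% against 20.8% to 25.2%), with a lower mean in each. These values were not tested.

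Cell by cell, Il12rb2 and Furin went with Ifng most closely. The 4791 cells with an Ifng UMI at 2000 UMIs were summed in each library and set against the 15961 cells without one, and these had median depths of 3835 and 3919 UMIs before thinning. Of the 9 genes other than Ifng, 8 were higher in Ifng-holding cells. Among all 10210 genes tested, 5.23% were higher and 5.18% lower (10.4% called in all, 1063 genes).

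Il12rb2 measured 438, 452, 442 and 376 CPM in the Ifng-holding cells of libraries 1 to 4, and 158, 123, 152 and 142 in the Ifng-lacking cells. The groups did not overlap, and the log2 fold change was 1.57 ± 0.05 (edgeR, adjusted p = 4.5e-23). For Furin the values were 657, 902, 775 and 574 CPM against 308, 326, 281 and 197 (1.38 ± 0.04, adjusted p = 4.5e-23), again with no overlap. Il18r1, the IL-18-binding chain, held 219, 290, 253 and 227 CPM against 136, 115, 138 and 105 (0.99 ± 0.06, adjusted p = 1.1e-14), and Il18rap, its accessory chain, 95.6, 128, 111 and 76.8 against 61.9, 59.2, 61.8 and 49.6 (0.81 ± 0.07, adjusted p = 4.6e-11). Each of these receptor genes was higher in all 4 libraries without overlap.

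The other IL-12 receptor chain and the transcription factor genes followed. Il12rb1 measured 130 ± 7.48 CPM with Ifng and 86.4 ± 10.4 without (0.58 ± 0.06, edgeR adjusted p = 5.4e-10). Tbx21 measured 99.0, 118, 117 and 108 CPM against 63.7, 77.4, 82.3 and 82.7 (0.53 ± 0.06, adjusted p = 1.4e-08), and Runx3 186 ± 31.0 against 154 ± 22.7 (0.26 ± 0.05, adjusted p = 6.0e-05). Both were higher with Ifng in all 4 libraries, but the 2 groups of Runx3 values overlapped between libraries, and its call was lost without the library block (adjusted p = 0.361). Eomes measured 3.76, 4.63, 10.1 and 13.0 CPM against 1.85, 1.42, 5.88 and 7.30 (0.94 ± 0.22, adjusted p = 0.00292). With 35 cells holding both genes, that call was lost in another random draw (0.57, adjusted p = 0.193), at 1500 UMIs (0.58, adjusted p = 0.293) and in DESeq2 (1.03, adjusted p = 0.199). Ifngr1 measured 692 ± 83.9 CPM with Ifng and 665 ± 43.6 without, and did not pass the test (0.05 ± 0.03, adjusted p = 0.417).

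**Figure D2:**
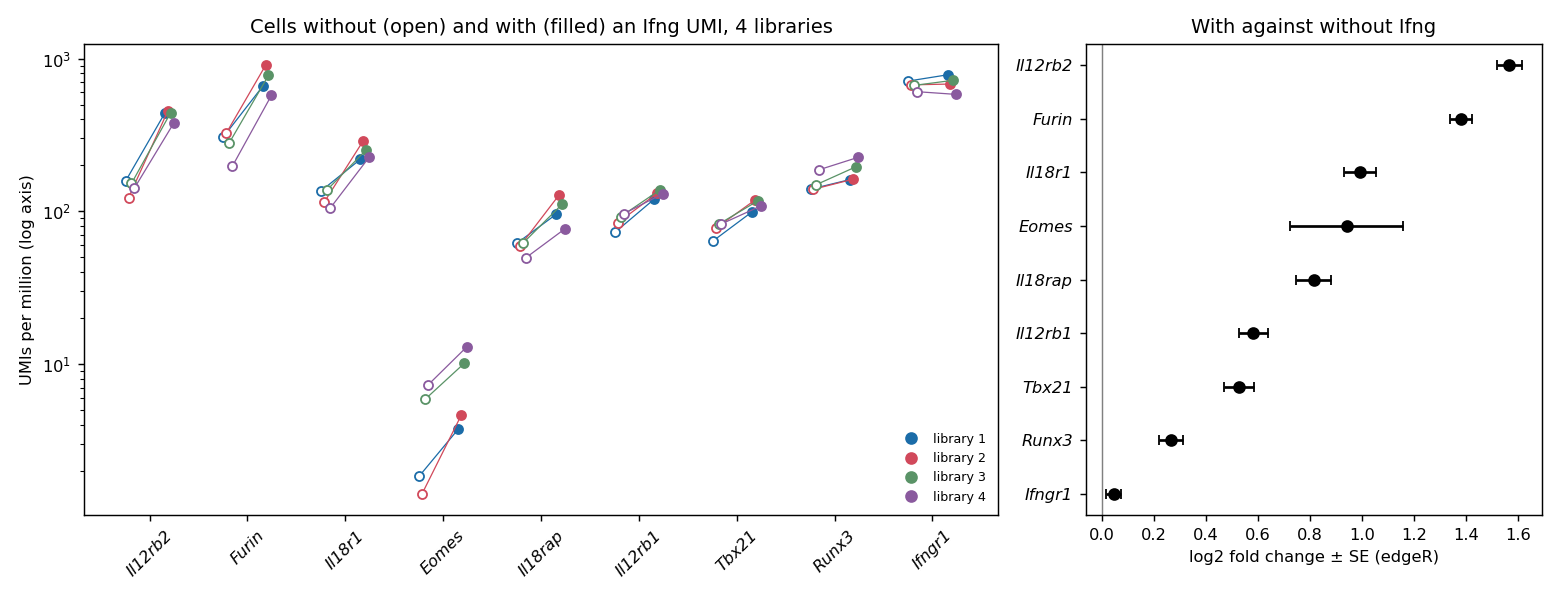
Left, CPM (log axis) of 9 genes in cells without (open) and with (filled) an Ifng UMI, with lines joining the 2 sums of 1 library. Right, the edgeR log2 fold change with its SE from the quasi-likelihood fit, which is not the spread of the library values. Il12rb2 (1.57) and Furin (1.38) lie farthest from 0 and Ifngr1 (0.05) nearest to it.

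The promoters of Ifng and of those 3 of the other 9 genes that had the smallest adjusted p in that comparison are shown because these genes went together. Each sequence covers the 250 bases before the RefSeq start (GRCm38.p6), 5′ to 3′ on the gene's strand, at chr10:118440796-118441045 (plus strand) for Ifng, chr6:67376189-67376438 (minus) for Il12rb2, chr7:80405437-80405686 (minus) for Furin and chr1:40465302-40465551 (plus) for Il18r1. For Furin and Il18r1, which have several starts in that table, the most upstream is shown. Capitals mark matches to TTCNNNGAA, the palindromic STAT motif.
Ifng: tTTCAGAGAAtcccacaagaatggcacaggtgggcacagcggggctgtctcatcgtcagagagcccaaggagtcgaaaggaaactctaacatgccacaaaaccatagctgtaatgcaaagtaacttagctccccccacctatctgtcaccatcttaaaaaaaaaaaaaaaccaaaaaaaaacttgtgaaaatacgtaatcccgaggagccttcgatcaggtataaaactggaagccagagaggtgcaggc
Il12rb2: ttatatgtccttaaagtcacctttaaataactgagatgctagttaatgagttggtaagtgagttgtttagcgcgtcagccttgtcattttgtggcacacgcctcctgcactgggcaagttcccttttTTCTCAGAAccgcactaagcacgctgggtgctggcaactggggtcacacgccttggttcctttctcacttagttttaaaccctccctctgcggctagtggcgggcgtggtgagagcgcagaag
Furin: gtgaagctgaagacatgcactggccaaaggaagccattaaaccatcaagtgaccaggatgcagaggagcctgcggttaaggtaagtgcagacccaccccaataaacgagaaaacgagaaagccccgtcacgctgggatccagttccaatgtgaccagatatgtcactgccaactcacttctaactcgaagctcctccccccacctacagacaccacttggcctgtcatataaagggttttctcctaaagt
Il18r1: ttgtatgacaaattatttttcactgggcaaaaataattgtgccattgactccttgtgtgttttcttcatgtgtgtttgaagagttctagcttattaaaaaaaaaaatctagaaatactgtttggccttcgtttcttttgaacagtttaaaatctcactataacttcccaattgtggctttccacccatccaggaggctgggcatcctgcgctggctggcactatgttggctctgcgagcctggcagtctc
The motif was found 249 bases before the start of Ifng and 123 bases before that of Il12rb2, and not in the Furin or Il18r1 window shown. The most downstream of the 3 Il18r1 windows held 2 matches (219 and 152 bases before its start). It occurs in 7.02% of the 32851 promoter windows of this length in the table. The T-box core GGTGTGA (reverse TCACACC, in 3.33% of windows), the Runx core TGTGGT (reverse ACCACA, 14.0%) and the AP-1 motif TGANTCA (6.75%), searched on both strands and distinct from the STAT letters, were not found in these 4 windows. Of the 10 genes, 9 had a window in the table. Il18r1 and Il18rap, whose products pair as the IL-18 receptor, are neighbours on chromosome 1 (40465552 to 40500854 and 40515362 to 40551705, both on the plus strand, GENCODE coordinates on GRCm38).

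Higher Ifng came with still more of the receptor transcripts. Cells with 0, 1, 2, 3 to 4, 5 to 8 and 9 or more Ifng UMIs numbered 15961, 2558, 906, 724, 390 and 213. Along these steps mean Il12rb2 was 144, 333, 430, 508, 630 and 897 CPM, and mean Furin was 278, 540, 698, 855, 1220 and 1786 CPM. Il18r1 went from 124 ± 16.4 to 500 ± 95.2 CPM, Il18rap from 58.1 ± 5.80 to 197 ± 40.3 and Il12rb1 from 86.4 ± 10.4 to 155 ± 26.1. By the last step 69.0% ± 4.49 of cells held Il12rb2 and 79.3% ± 5.19 held Furin, against 15.2% ± 1.75 and 27.1% ± 4.23 of cells without Ifng.

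The transcription factor genes did not keep that pace. Tbx21 measured 76.5 ± 8.87, 110 ± 10.3, 126 ± 6.47, 113 ± 16.8, 90.7 ± 14.0 and 85.8 ± 5.47 CPM along the same steps, with its highest mean at 2 Ifng UMIs. In each library the value at 9 or more Ifng UMIs lay below that at 2. Runx3 stood at 154 ± 22.7 CPM without Ifng, 196 ± 13.0 at 3 to 4 UMIs and 150 ± 53.9 at 9 or more, and Ifngr1 went from 665 ± 43.6 to 824 ± 142. These steps are a description with no test.

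**Figure D3:**
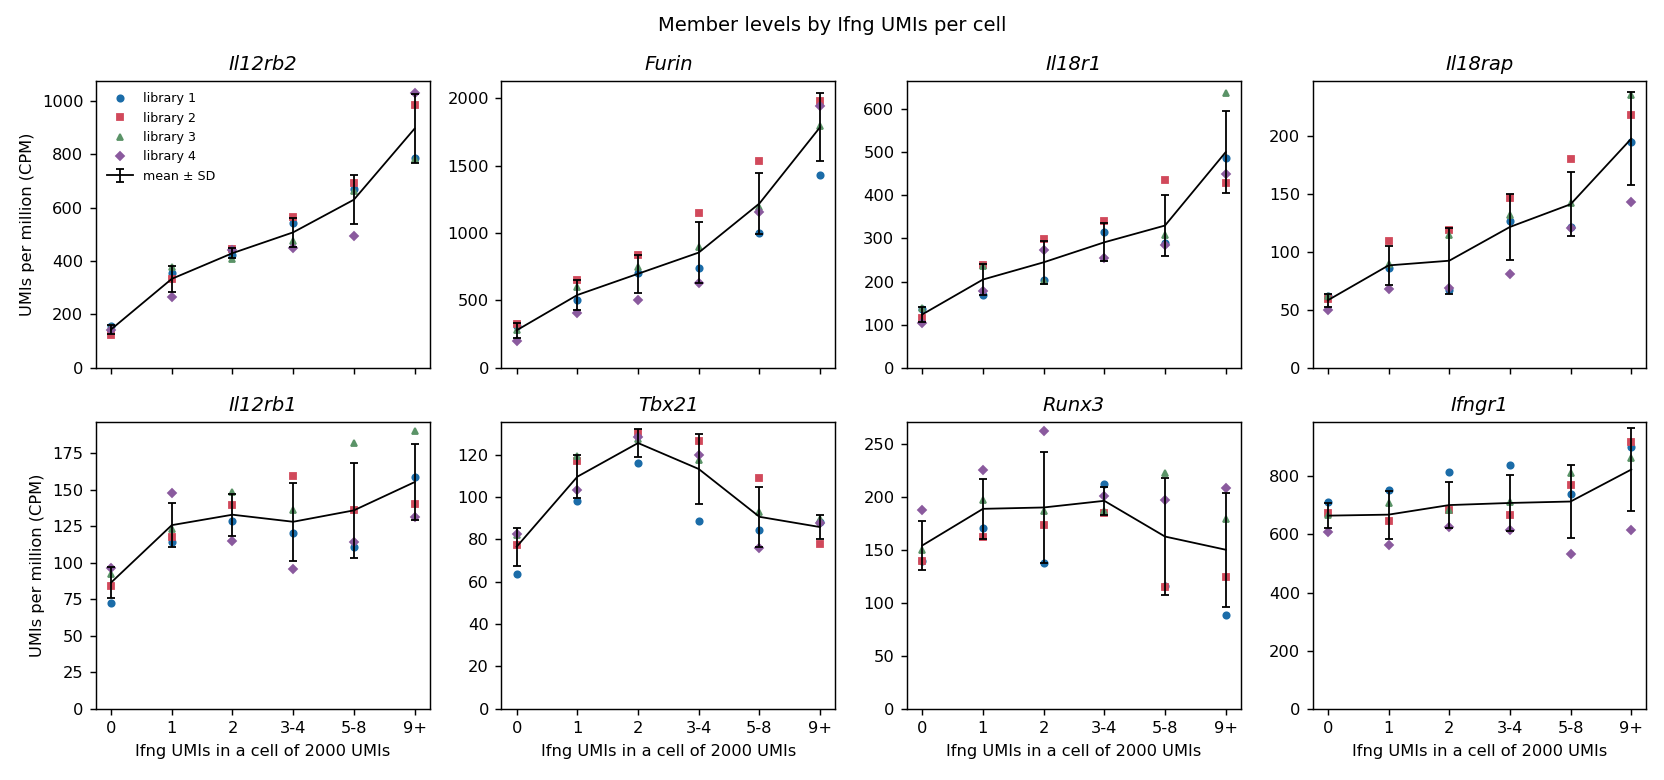
CPM of 8 genes (vertical axes, linear from 0) by the number of Ifng UMIs in a cell of 2000 UMIs (horizontal axes); points are the 4 libraries and the line is their mean ± SD. Il12rb2 and Furin are highest at 9 or more Ifng UMIs (897 and 1786 CPM), while Tbx21 is highest at 2 (126 CPM).

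Likeness to Ifng was measured over single cells by the phi coefficient of detection, which is 0 where 2 genes are found independently and 1 where they are always found together. Cells of a library share its depth and free RNA, so phi is given with no p. Among 7463 genes found in at least 2% of the 20752 thinned cells, the median phi with Ifng was 0.00114 and 22 genes exceeded 0.1. Il12rb2 had the highest phi (0.232 ± 0.0343 over 4 libraries). Among the 10 highest were also Furin (rank 3, 0.178), the granule gene Nkg7 (0.174), granzyme B (Gzmb, 0.149), the chemokines Ccl5 (0.140) and Xcl1 (0.140), granzyme K (Gzmk, 0.136), the cytokine Il21 (0.129) and Il18r1 (0.127). Il18rap stood at rank 35 (0.0832), Il12rb1 at 44 (0.0734), Tbx21 at 58 (0.0666), Runx3 at 163 (0.0403) and Ifngr1 at 1424 (0.0110). Phi also depends on how often a gene is found or missed. Holding cells had a mean of 1.15 UMIs of Il12rb1, 1.17 of Tbx21, 1.18 of Il18rap and 1.23 of Runx3. They had 1.48 of Il18r1, 2.06 of Il12rb2, 2.26 of Ifngr1 and 2.40 of Furin. The part of this in the ranks was not tested. Eomes was found in 0.573% ± 0.371 of cells and was too rare to be ranked (phi 0.0122). Among the 5 lowest phi values, leaving out predicted, ribosomal, mitochondrial, T cell receptor and immunoglobulin genes, were those of the epidermal growth factor family gene Areg (-0.0983), the receptor gene Klrg1 (-0.0961), Rgs10 (-0.0955) and Foxp3 (-0.0901).

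In terms of cells, Il12rb2 was found together with Ifng in 1791 cells, which is 1.84 ± 0.167 times the share expected if both were detected independently. The ratio was 1.48 ± 0.0734 for Furin, 1.46 ± 0.155 for Il18r1, 1.42 ± 0.123 for Il18rap, 1.30 ± 0.0801 for Il12rb1, 1.30 ± 0.0618 for Tbx21, 1.12 ± 0.0389 for Runx3 and 1.02 ± 0.0230 for Ifngr1. For Eomes it was 1.35 ± 0.198, from 35 cells. Read the other way, 42.6% ± 3.64 of cells with Il12rb2 held Ifng against 18.2% ± 1.31 of cells without it, while for Ifngr1 the shares were 23.5% ± 1.90 and 22.5% ± 0.959. In the 578 Ccr7-holding cells the same detection found Il12rb2 in 4.50% (2.96% to 6.52%), Furin in 13.8% (11.1% to 16.9%) and Tbx21 in 4.15% (2.68% to 6.12%). For Runx3 and Ifngr1 it was 13.1% (10.5015% to 16.2%) and 55.2% (51.0% to 59.3%). Eomes was found in 1.56% of them (0.714% to 2.94%), which is above its share in all cells (0.573%). These cells therefore give no background for Eomes, and how far its shares exceed background was not settled.

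The receptor genes and Furin also went with each other. Of 45 gene pairs, 10 had a mean phi above 0.1, and none of these held Tbx21, Eomes, Runx3 or Ifngr1. Il12rb2 with Furin was highest (0.336 ± 0.0469), then Il12rb2 with Il18r1 (0.275 ± 0.0449) and Il18r1 with Furin (0.237 ± 0.0203), all above the highest phi of any gene with Ifng. Within Ifng-lacking cells alone Il12rb2 with Furin still had a phi of 0.254 ± 0.0380, and within Ifng-holding cells it had 0.430 ± 0.0504. Tbx21 with Il12rb2 behaved differently, at 0.0597 ± 0.0275 in Ifng-lacking and 0.00782 ± 0.0118 in Ifng-holding cells. Eomes was rarely found beside the receptors. It shared 2 cells with Il12rb2, 0.123 ± 0.183 of the share expected from independent detection, and 4 cells with Furin (0.113 ± 0.0945).

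**Figure D4:**
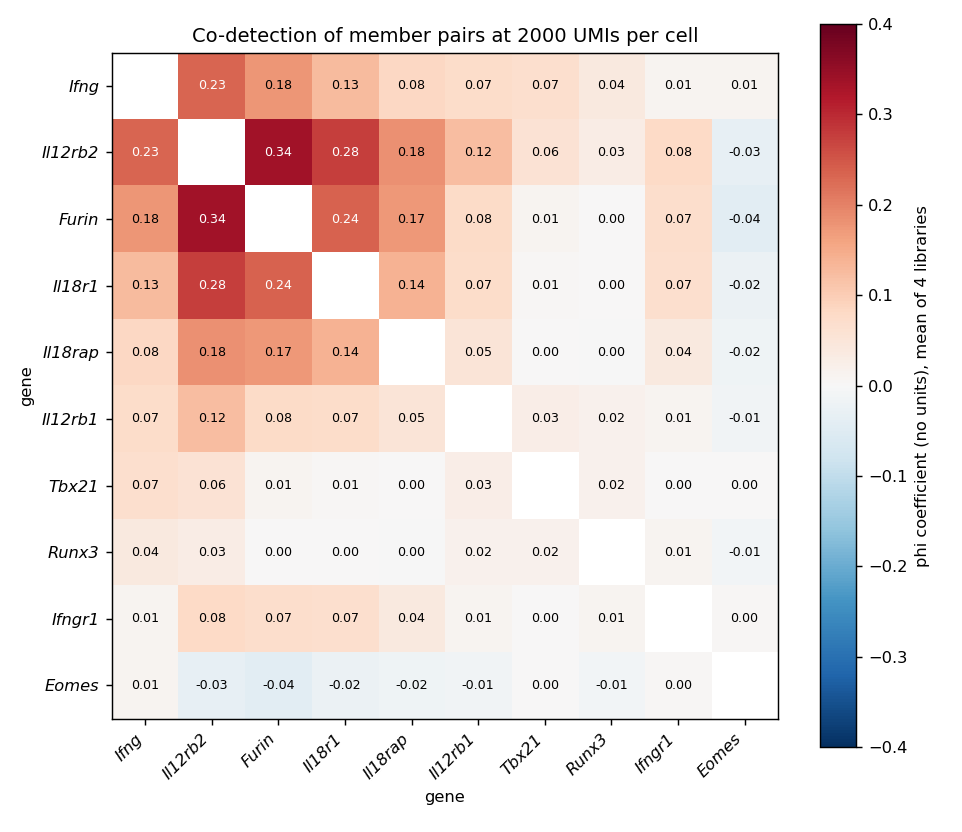
Phi coefficients (colour scale, mean of 4 libraries) for the 45 pairs of the 10 genes at 2000 UMIs per cell. Ifng, Il12rb2, Furin and Il18r1 form a block of positive values (0.127 to 0.336), and the row of Eomes is near or below 0.

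Il12rb2, Furin and Il18r1 were then counted together in each cell. They are the 3 of these genes with the highest phi with Ifng in the same cells, so the shares by their number describe that association further and do not test it. With none, 16.7% ± 1.68 of 11003 cells held Ifng, with 1 of them 20.8% ± 1.00 of 5842, with 2 of them 38.9% ± 3.99 of 2505, and with all 3 of them 54.8% ± 5.03 of 1402. The lowest library with all 3 (49.3%) lay above the highest with 2 (44.8%). Among cells that held Il12rb2, the share hardly differed by Tbx21. Of those with both genes 44.2% ± 6.92 held Ifng, and of those with Il12rb2 alone 42.1% ± 2.95, and these shares overlapped between libraries. Without Il12rb2, 25.1% ± 1.78 of cells with Tbx21 held Ifng against 17.1% ± 1.34 of cells without it, with no overlap. Ifng was found in 29.9% ± 1.88 of 2962 cells with Tbx21 and no Eomes, in 28.6% ± 3.70 of 98 cells with Eomes and no Tbx21, and in 21.9% ± 1.39 of the 17673 cells with neither.

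Complete receptor pairs were found more often in Ifng-holding cells. Transcripts of both IL-12 receptor chains were found in 10.7% ± 1.02 of them against 3.63% ± 0.485 of Ifng-lacking cells, and those of both IL-18 receptor chains in 8.22% ± 2.06 against 2.96% ± 0.413. All 4 chains were found in 1.89% ± 0.677 against 0.486% ± 0.218, and none of the 4 in 39.8% ± 2.94 against 58.1% ± 1.87. At 2000 UMIs a transcript is often missed, so these shares are of cells with a UMI and not of cells that express the gene. Each chain was also commoner by itself with Ifng. Over independent detection within each group, Il18r1 with Il18rap had a ratio of 1.66 in Ifng-holding and 1.66 in Ifng-lacking cells. For Il12rb1 with Il12rb2 it was 1.32 and 1.57. By phi both pairs were higher with Ifng (0.190 against 0.101, and 0.130 against 0.102). Pairing beyond the single genes was not tested.

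The link between Ifng and the other genes was then tested inside each gate, in 1 fit over 6977 genes in which 8 of the genes could be tested and Eomes fell below the filter. In the rest, 7 of the 8 were higher in Ifng-holding cells, where 8.64% of all genes tested differed (4.34% higher, 4.3% lower), and Ifngr1 was not called (0.09 ± 0.04, edgeR adjusted p = 0.304). In the Gzma gate 4 were higher, against 1.38% of all genes that differed (1.06% higher, 0.315% lower), namely Il12rb2 (1.11 ± 0.09), Il18r1 (1.10 ± 0.12), Furin (1.07 ± 0.08) and Il18rap (0.93 ± 0.16), and Tbx21 was not called (0.41 ± 0.14, adjusted p = 0.204). Among Foxp3 cells 3 were higher, against 3.04% of all genes that differed (0.717% higher, 2.32% lower). These were Il12rb2 (3.14 ± 0.27), Furin (1.96 ± 0.20) and Il18r1 (1.73 ± 0.25). None of the 8 was called in the Il17a gate, where 0.602% of all genes differed (0.0143% higher, 0.588% lower), or in the Cd8a gate (0.086% differed, 0.043% higher). DESeq2 was not run inside gates. At an unadjusted p under 0.05 edgeR counted 1 of the 8 in each, Il12rb2 in the Il17a gate (1.53 ± 0.42) and Il18r1 in the Cd8a gate (1.49 ± 0.44). Those gates held few Ifng-positive cells, 89 in the Il17a gate (9 to 30 per library) and 183 in the Cd8a gate (27 to 100), and the Foxp3 gate held 104 (18 to 39). The direction of the shares of all genes in the Foxp3 and Il17a gates depended on scaling. With library size alone, 78 genes were higher and 49 lower among Foxp3 cells, against 50 and 162 in the main fit. In the Il17a gate 0 genes were called that way, against 42. The members called stayed at 3 and 0.

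**Figure D5:**
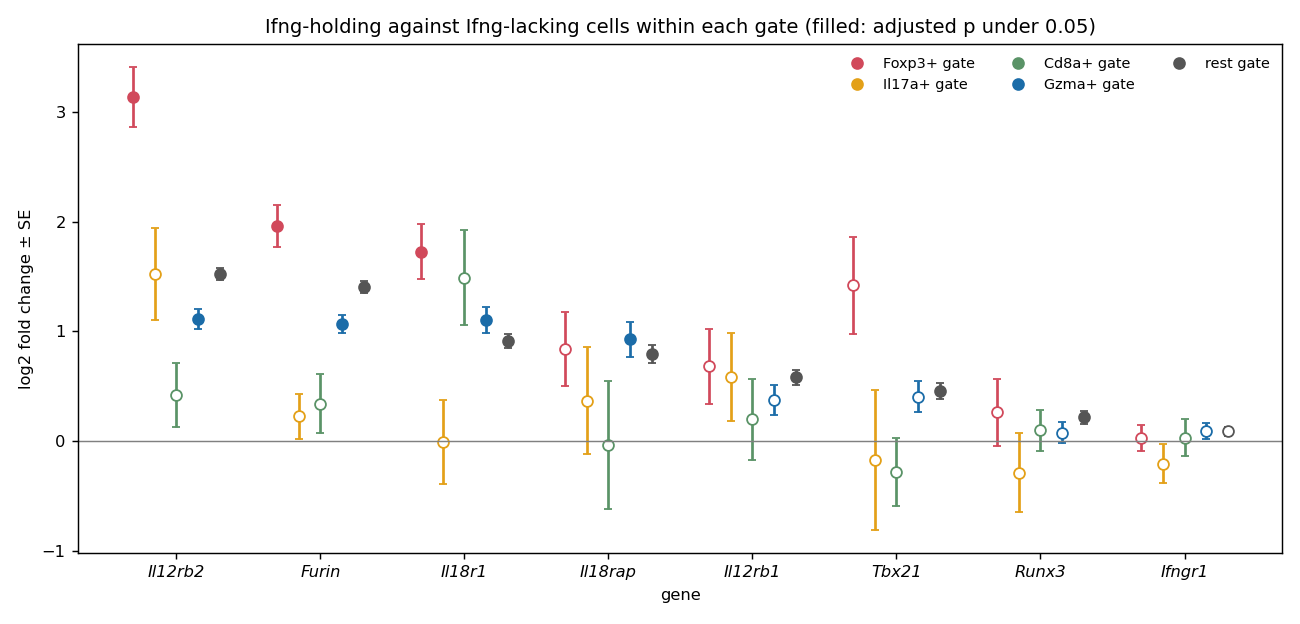
Log2 fold change (vertical axis, ± SE from the edgeR quasi-likelihood fit) of 8 genes between Ifng-holding and Ifng-lacking cells inside each of the 5 gates, coloured by gate. Filled points passed an adjusted p of 0.05. Il12rb2 in the Foxp3 gate (3.14) is the highest point, and no point is filled in the Il17a or Cd8a gate.

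Set against the rest directly, 1 gene differed in the Foxp3 gate (0.817% of all genes tested, with 0.229% more positive and 0.588% more negative) and 1 in the Il17a gate (0.1%, all more negative), as tested by the interaction of gate and Ifng. In the Foxp3 gate Il12rb2 measured 556, 295, 500.5 and 65.3 CPM in Ifng-holding cells of libraries 1 to 4, and 35.0, 21.8, 49.2 and 36.4 in Ifng-lacking cells. All 4 libraries were higher with Ifng, but library 4 by far the least. In the rest Il12rb2 measured 433 ± 49.9 CPM with Ifng and 148 ± 18.9 without it. The Foxp3 gate had the lower mean in both groups, at 354 ± 223 and 35.6 ± 11.2 CPM. The Ifng-linked log2 difference in the Foxp3 gate exceeded that of the rest by 1.61 ± 0.28 (edgeR adjusted p = 1.5e-04). This call was lost without the library block (1.54, adjusted p = 0.105). Without library 4, 3 of the genes passed the same test, as did 39 of all 7251 genes. In the Il17a gate Furin measured 701, 834, 779 and 501 CPM with Ifng and 636, 485, 463 and 423 without it. Every library was higher with Ifng, but the 2 groups overlapped between libraries. Mean Furin with Ifng was 704 ± 146 CPM in the Il17a gate and 695 ± 136 in the rest. Without Ifng it was 502 ± 93.2 in the Il17a gate and 258 ± 60.3 in the rest. The Ifng-linked difference in the Il17a gate was smaller than that in the rest (log2 difference -1.18 ± 0.21, edgeR adjusted p = 2.6e-04). That call too was lost without the block (-1.16, adjusted p = 0.380). With library size alone as scaling, 24 genes were more positive and 17 more negative in the Foxp3 gate, and 2 and 2 in the Il17a gate. The direction of the shares of all genes in these gates therefore depended on scaling, while 1 of the 8 was still called in each. In the Cd8a gate, where 0.158% of all genes differed (0.0287% more positive, 0.129% more negative), none of the 8 passed. Il12rb2 was at -1.10 ± 0.30 (edgeR adjusted p = 0.113) and Furin at -1.06 ± 0.28 (adjusted p = 0.0992). At an unadjusted p under 0.05 there were 3 of 8. Without library 2, 2 passed, as did 20 of all 7032 genes. Without library 3, 1 passed, as did 12 of all 7037 genes. In the Gzma gate, where 0.172% of all genes differed (0.0573% more positive, 0.115% more negative), none of the 8 passed either (2 at an unadjusted p under 0.05). Without library 3, 1 did, as did 8 of all 7037 genes.

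Genes that work with these in the same pathways were counted in the comparison of Ifng-holding with Ifng-lacking cells, where the median log2 fold change over all 10210 genes was -0.0019. Of 11 other genes of the IL-12 and IL-27 pathways 3 were higher (median 0.17), namely Il2rb (0.43 ± 0.04), the suppressor of cytokine signalling gene Socs3 (0.25 ± 0.06) and Stat4, the IL-12-activated factor (0.17 ± 0.04, 277 ± 6.72 against 246 ± 5.26 CPM). Of 15 genes of the IL-18 and IL-1 family pathways 5 were higher and 2 lower (median -0.06). Gadd45g (1.38 ± 0.07) and Gadd45b (0.64 ± 0.02), which carry the IL-12 and IL-18 signal to p38 kinase, were among the higher ones with Nfkbiz (0.52 ± 0.04). Il1rl1, the IL-33 receptor gene (-1.38 ± 0.18), was among the lower ones.

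In the interferon-γ receptor and response list 7 of 14 were higher and 1 lower (median 0.11). Cxcl10 (1.15 ± 0.04, 317 ± 71.4 against 142 ± 38.0 CPM) and the guanylate-binding protein genes Gbp2 (0.91 ± 0.05) and Gbp3 (0.81 ± 0.08) were higher. Ifngr2, the second chain of the interferon-γ receptor, was the lower one and held 2.92, 1.26, 2.33 and 1.35 CPM with Ifng against 14.5, 9.69, 7.84 and 7.56 without it (-2.32 ± 0.34, edgeR adjusted p = 1.4e-08). It was therefore low in Ifng-holding cells of every library, beside an Ifngr1 level that did not pass the test. That value rests on few transcripts. At 2000 UMIs Ifngr2 was found in 18 of the 4791 Ifng-holding cells and in 1.37% ± 0.404 of all cells.

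Of 17 transcription factor genes 7 were higher and 2 lower (median 0.17), with Irf8 (1.27 ± 0.11) and Maf (0.40 ± 0.03) higher and the Th2 factor gene Gata3 (-0.67 ± 0.06) among the lower ones. The cytokine and chemokine list had 9 of 13 higher and 2 lower (median 0.53), with Il21 (2.20 ± 0.11), Ccl4 (1.64 ± 0.07), Xcl1 (1.41 ± 0.04) and Ccl5 (0.59 ± 0.02). The Th1 surface and killing list had 10 of 14 higher and 1 lower (median 0.66), among them Cxcr6 (0.78 ± 0.03) and Nkg7 (0.67 ± 0.02), and the lower one was Tnfrsf9 (-1.66 ± 0.09), the gene of the co-stimulatory receptor 4-1BB. T cell receptor-induced genes had 7 of 12 higher (median 0.28), among them Cd69 (0.41 ± 0.03), Dusp2 (0.32 ± 0.04), Nr4a1 (0.31 ± 0.03) and Junb (0.14 ± 0.02).

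Around Furin, 2 of the 6 other proprotein convertase and TGF-β genes tested were lower (median -0.04). These were Itgb8 (-2.86 ± 0.49) and Lrrc32 (-3.39 ± 0.75), which encode the TGF-β-activating integrin chain and the TGF-β-anchoring protein of regulatory T cells, at 1.08 ± 0.878 against 7.66 ± 1.96 and 0.419 ± 0.484 against 4.54 ± 1.43 CPM. With Ifng, Lrrc32 was at 0 CPM in libraries 3 and 4. The Ifng-lacking group held 1402 cells of the Foxp3 gate and the Ifng-holding group 104, and Foxp3 itself was lower with Ifng (-2.53 ± 0.19). The part of these cells in the lower genes of all the lists was not tested. Tgfb1, the gene of the furin substrate, measured 160 ± 19.3 against 170 ± 17.5 CPM (-0.10 ± 0.05, adjusted p = 0.304). Naive or central memory genes had 7 of 8 lower and 1 higher (median -1.001), with Ccr7 (-2.39 ± 0.20), S1pr1 (-1.45 ± 0.19), Lef1 (-1.08 ± 0.12) and Klf2 (-0.92 ± 0.08) lower. The 1 higher gene, Il7r (0.38 ± 0.05), and the genes Il1r2 (-1.46 ± 0.30), Il22 (-0.37 ± 0.10) and Il2 (-0.32 ± 0.09), which complete the lower genes of their lists, were named after their values were seen. Il22 was higher with Ifng in library 4 (35.1 against 23.7 CPM) and Il2 in library 1 (45.1 against 44.2), so each was lower in 3 of the 4 libraries.

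Epithelial and myeloid marker sums were lower in Ifng-holding cells. The epithelial list summed to 9.43 to 14.3 CPM with Ifng (2 (Krt20, Vil1) of 6 at 0) and 19.7 to 32.0 without it, and the myeloid list summed to 133 to 141 CPM in Ifng-holding and 155 to 168 in Ifng-lacking cells with no marker at 0 in either. The B cell list summed to 3.36 to 12.1 CPM (3 of 5 at 0, Ms4a1 and Pax5 among them) and 10.5 to 12.7 (1 of 5 at 0), which overlap. The γδ T cell list summed to 75.9 to 182 CPM with Ifng and 50.5 to 100.5 without it, with none of its 4 markers at 0 in either, and its part in these differences was not tested. Without the cells that held other cell types' markers the 8 calls stood at 8, with Il12rb2 at 1.50 and Furin at 1.35. There 923 of all 10038 genes were called.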

How the data were processed

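Messenger RNA was counted in CD4 T cells of 4 small-intestine libraries (Chromium 5′ chemistry, per the labels' protocols). The authors deposited raw UMI counts per gene and barcode, made with Cell Ranger 3.0.2 on mm10 per the submitters' processing notes. Libraries held 28783972, 26407082, 23918884 and 26681150 UMIs. The lowest barcode held 502 UMIs, so free RNA could not be measured in empty droplets.

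Cells needed at least 500 genes and 1000 UMIs with mitochondrial UMIs no higher than 10%; 22534 of 22904 barcodes passed. Scrublet (scanpy 1.11.5) scored doublets, and the highest scores were removed at 0.8% per 1000 barcodes (1033 cells). UMIs were summed per library and group of cells, and edgeR 4.0.16 (TMM, filterByExpr, quasi-likelihood tests, library as a block, Benjamini-Hochberg at 0.05 over all genes tested) compared the sums, so libraries and not cells were replicates. Both groups of each pair come from the same library, which is why the library is a block. Residual degrees of freedom were 3 for the Ifng comparison, 12 for gates and 15 within gates. SE values are from the quasi-likelihood fit and never below counting error. They use an estimate of spread shared in part across genes, so they can be smaller than the spread of the library values gives. In the Ifng comparison the SE in DESeq2 was 0.14 for Il18r1 and 0.10 for Furin, where edgeR gave 0.06 and 0.04. Ifng was not tested, nor counted in library sizes, where it split the cells, and gate genes were not tested between gates.

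On simulated data, 91% of changes of 1 and 100% of changes of 2 on the log2 scale were recovered in the Ifng comparison (10103 genes simulated, 6.37% of calls false), and 72% and 94% for the Cd8a gate (9608). Changes were put only into genes above a minimum mean count, with the same fixed dispersion for all genes and no differences between libraries. The rates therefore do not cover sparser genes or data with library effects such as these. Gene positions came from GENCODE, in which 30934 of 31053 IDs were matched, and promoters from RefSeq.

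The genes and lists were chosen with earlier results of these data known. Named genes are the 10 members, the 10 highest and 5 lowest phi with Ifng (at least 2% of cells, the same sign in all 4 libraries, no predicted, ribosomal, mitochondrial, T cell receptor or immunoglobulin genes) and from each list up to 4 genes, by adjusted p. Alternatives were other thinning depths and draws, gate and cell filters, scaling, no low-count filter, no block, each library left out, and DESeq2 1.42.0. Results that need certain genes are not reported here.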

Additional observations from a re-analysis of the deposited data

Results flagged for a closer look

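In 65 sets of 4 library values, 5 had a library far from the others, and chance alone flags about 1 in 20. The share of cells in the Cd8a gate was 5.94% in library 4 and 1.65% to 1.78% in the others. Il12rb2 in the Il17a gate measured 109 CPM in library 3 against 59.5 to 64.1 elsewhere, and Furin in the same gate 362 CPM in library 4 against 514 to 536. Il18r1 in the Cd8a gate measured 87.2 CPM in library 2 against 51.3 to 54.8, and Il18rap in the Foxp3 gate 50.8 CPM in library 4 against 68.2 to 69.9.

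The difference linked to Ifng was not the same in every gate for 2 genes, by the interaction test in edgeR. For Il12rb2 it was larger by 1.61 (log2) in the Foxp3 gate than in the rest, and for Furin the Il17a gate minus the rest gave -1.18.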

How the results depend on the processing

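Of 749 values of single genes under an alternative, 677 kept direction and side of the threshold, 41 lost and 11 gained the call, and 20 turned sign. The cause of these changes was not tested, except where fewer cells or libraries entered. Between Ifng-holding and Ifng-lacking cells 1063 genes were called, and in separate fits 1682 without thinning, 561 in cells of 2000 to 4000 UMIs and 435 in DESeq2, and leaving out 1 library gave 791 to 970. Sums were paired by library, and the fit without that replicate block called 283 genes there and 6 of the 9 members. It also called 803 genes and 4 members in the Gzma gate (1402 and 7 with the block). For the difference from the rest it called 0 members in the Foxp3 and 0 in the Il17a gate, with 7 and 0 of all 6977 genes.

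Gates set on thinned counts called 1576 genes for Foxp3 (2977), 556 and 5 members for Il17a (2383 and 9), 607 for Cd8a (1171) and 848 and 4 members for Gzma. A Gzma gate at 20 UMIs called 4 members and 1479 of all 9603 genes. Sums thinned to 2000 UMIs called 771 genes for Il17a and 734 for Cd8a, and without cells marked as another type 1344 were called for Il17a. Leaving out 1 library gave 1513 to 2002 genes for Il17a (lowest without library 1), 754 to 986 for Cd8a (without library 2) and 922 to 1271 for Gzma (without library 1). For members whose difference departs from the rest it gave 1 to 3 for Foxp3 (3 without library 4), 0 to 2 for Cd8a and 0 to 1 for Gzma. Of all 6929 to 7251 genes, it gave 39 to 56, 9 to 20 and 8 to 17. At 1500 UMIs the members numbered 2 for Foxp3 and 1 for Gzma (65 and 19 of all 6145 genes). For Gzma there was 1 with its gate at 5 UMIs (11 of 7148 genes) or with library size alone (18 of 6977).

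The share of cells with Ifng was 20% at 1500 UMIs, 27.7% at 3000 and 32.3% unthinned. Co-detection with Ifng was 1.65 unthinned for Il12rb2, and for Furin 1.63 at 1500 UMIs, 1.38 at 3000 and 1.31 unthinned. The values that turned sign were all uncalled. Ifngr1 between Ifng-holding and Ifng-lacking cells was -0.01 unthinned and -0.01 in cells of 2000 to 4000 UMIs. Il18rap in the Foxp3 gate (0.0031) became -0.06 with gates on thinned counts, -0.04 with a Gzma gate at 20 UMIs, -0.03 with library size alone, -0.02 without the low-count filter and -0.02 to 0.03 with 1 library left out. Ifng in the Cd8a gate became 0.06 with a Gzma gate at 5 UMIs, 0.04 without cells marked as another type, 0.02 with library size alone and -0.19 to 0.11 with 1 library left out. Tbx21 with 1 library left out was -0.01 to 0.14 in the Cd8a gate and -0.03 to 0.10 in the Gzma gate, where it was -0.01 with the gate at 5 UMIs and -0.01 at 20. In the Gzma gate Il12rb1 was -0.00064 with gates on thinned counts, and Il18r1 was -0.13 with those and -0.25 at 20 UMIs.

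Runx3 in the Gzma gate and Il12rb1 and Il18r1 in the Il17a gate were called but lost the call when single libraries were left out. Eomes, found in 0.573% of cells, limits what its values can show. It was below the filter, and so not tested, without library 3 or 4, without cells marked as another type, with sums or gates on thinned counts and with the Gzma gate at 20 UMIs, which lowers the members' counts there by up to 1.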
